A study of Mus musculus with 24 samples.

Results

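The genes described here encode neurotrophins, their receptors and the docking proteins that bind those receptors: the ligands *Bdnf* and *Ntf3*, the receptors *Ntrk2*, *Ntrk3* and *Ngfr*, and the adaptors *Frs2*, *Dok4* and *Dok5*. They were taken by symbol from a table of 54658 mouse genes, which held all 8. RNA was measured in 24 libraries of dorsal telencephalon, the embryonic cortex, from crosses of Cep135(+/-) mice. The mutants were Cep135(Δ8/Δ8) embryos, labelled Cep135 (-/-), which carry a CRISPR/Cas9 deletion in every cell of the embryo, and the controls were Cep135(+/+) embryos. *Cep135* encodes a centriole protein. There were 3 mutant and 3 control cortices at E11.5 and 3 and 3 at E14.5 (E, embryonic day), and cells of the same 6 E14.5 cortices were also grown as neurospheres for 12 and 24 h in a medium with EGF and FGF2. Mutant embryos are called A, B and C at E11.5 and 1, 2 and 6 at E14.5; control embryos are called D, E and F and 3, 4 and 5.

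Neurotrophins are secreted growth factors that keep neurons alive and promote their differentiation, the outgrowth of their processes and the formation of synapses. Brain-derived neurotrophic factor, encoded by *Bdnf*, acts through the receptor tyrosine kinase TrkB (*Ntrk2*), and neurotrophin-3 (*Ntf3*) acts mainly through TrkC (*Ntrk3*), while all neurotrophins bind p75NTR (*Ngfr*), a receptor without a kinase domain. An activated Trk receptor is phosphorylated on tyrosines that recruit docking proteins, among them FRS2 and members of the Dok family, and these pass the signal to the Ras and MAPK pathway. In the embryonic cortex both *Ntrk2* and *Ntrk3* are known from progenitors as well as neurons, and both genes also make shorter receptors that lack the kinase.

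Values are normalized read counts, that is, reads per gene divided by a size factor of the library, from libraries that read only the 3′ end of each transcript. Libraries held 4732781 to 11645213 reads on genes, as recovered from the table, and the 24 h mutants (7903426 to 11645213) were deeper than the 24 h controls (4732781 to 5709443). *Cep135* itself ranged from 171 to 375 normalized counts in the 12 cortices and from 185 to 336 in the 12 cultures and overlapped between genotypes in every setting, but 3′ reads lie outside the 8-base deletion and so do not check the genotype. All 4 cortex marker genes were present in every group. The labels do not name litters, which were read from the prefixes of the sample titles. By these the 6 E14.5 embryos were 1 litter and the E11.5 embryos came from 2 others, so age and litter cannot be told apart. At E11.5, embryos A and D shared a title prefix, and B, C, E and F shared another. The data columns of mutants B and C carry a different prefix from those of controls E and F. If that marks a separate litter, litter and genotype cannot be told apart in B, C, E and F. By *Xist* and Y-linked transcripts 5 of the 12 embryos were female. These were A, C and E at E11.5 and mutants 1 and 2 at E14.5, while mutant 6 and all E14.5 controls were male. Sex and genotype are thus largely confounded at E14.5 and in the cultures. One E14.5 mutant cortex, from embryo 6, is described as E11.5 in 1 of its labels and as E14.5 in the others, and was taken as E14.5.

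The calls in these genes came from the age and culture comparisons, which called many genes of the whole table. Between E11.5 and E14.5, where 53.1% of all genes were called, the 2 Trk receptor genes and the 3 adaptor genes rose, *Ntrk3* the most (5.78-fold) and *Frs2* the least (1.30-fold). Within 12 h of culture, where 30.2% of all genes were called, *Bdnf* rose 4.30-fold while *Dok4* and *Dok5* fell. Between mutants and controls none of the 7 genes with enough reads to test passed an adjusted p of 0.05 in any of the 5 comparisons made, which called at most 0.271% of all genes. *Ntrk3* was lower in every mutant than in every control at E11.5 and at E14.5, as 1.37% of all genes were apart in the same direction at both ages, and also at 24 h, from which the study had picked it.

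**Figure D1:**
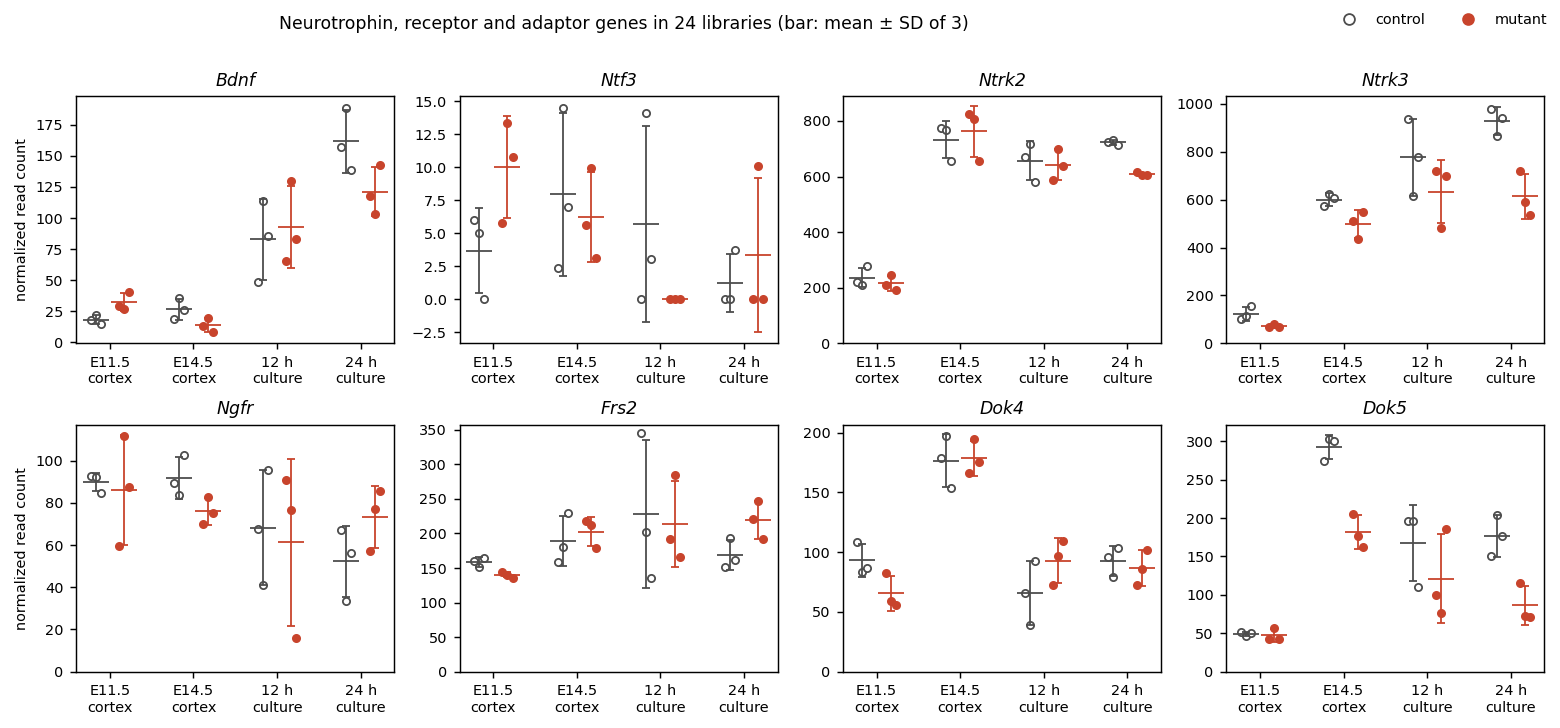
Normalized read counts (y, linear) of the 8 genes in E11.5 cortex, E14.5 cortex, 12 h culture and 24 h culture (x). Open grey points are control libraries, filled red points are mutant libraries, and bars give the mean ± SD of 3 libraries. *Ntrk2*, *Ntrk3* and *Dok5* sit higher in the 12 cultures and 6 E14.5 cortices than in E11.5 cortex, *Bdnf* is highest in culture, and *Ntf3* stays under 15 with several libraries at 0, where the lower ends of some SD bars run below 0.

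*Bdnf* (ENSMUSG00000048482; GRCm38 chromosome 2, 109674700 to 109727007, plus strand) has 11 coding transcripts in the annotation, from 9 different starts, and all of them share 1 3′ end. The reads therefore sum the output of all its promoters and cannot separate them. RefSeq promoter windows (GRCm38.p6) were found for 5 of the 8 genes, 7 of them for *Bdnf*. The following 250-base stretches end just before a start site and show the promoters of *Bdnf* whose products the count adds together, the most upstream one and the only one of the 12 windows that holds the core of the cAMP response element (TGACG or, on the other strand, CGTCA), which is in capitals:
chr2:109674450-109674699 (plus strand): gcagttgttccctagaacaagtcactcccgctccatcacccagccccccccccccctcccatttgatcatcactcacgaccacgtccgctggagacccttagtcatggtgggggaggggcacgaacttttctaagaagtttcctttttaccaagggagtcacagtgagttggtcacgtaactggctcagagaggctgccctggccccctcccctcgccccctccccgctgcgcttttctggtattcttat
chr2:109692186-109692435 (plus strand): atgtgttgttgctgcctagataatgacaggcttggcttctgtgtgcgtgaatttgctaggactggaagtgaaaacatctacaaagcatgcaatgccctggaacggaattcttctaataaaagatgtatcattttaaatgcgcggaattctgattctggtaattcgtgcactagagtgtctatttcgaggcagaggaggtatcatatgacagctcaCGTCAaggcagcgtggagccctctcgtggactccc

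The last base of the core lies 31 bases before the start in the second stretch. It was found in 17.8% of the 32851 mouse windows of this length, and the full 8-base element (TGACGTCA), which contains the core on both strands, in 1.55% of them and in none of the 12. The match is a description of the letters only.

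In E11.5 cortex *Bdnf* was measured at 29.7, 26.8 and 40.4 normalized counts in mutants A, B and C and at 18.1, 21.7 and 14.8 in controls D, E and F. All 3 mutants were above all 3 controls. In E14.5 cortex the mutants 1, 2 and 6 had 13.5, 19.9 and 8.61, and the controls 3, 4 and 5 had 18.8, 35.6 and 26.2. There mutants 1 and 6 lay below every control, and mutant 2 lay above control 3, so the groups overlapped. The mutant over control log2 fold change was 0.79 (SE 0.29) at E11.5 and -0.92 (SE 0.40) at E14.5, with limma adjusted p of 0.617 and 0.535. The genotype by age interaction was -1.70 on the log2 scale (SE 0.49, limma adjusted p 0.620 across all genes). An exact permutation of genotype labels within each age gave p 0.01 for this contrast, unadjusted and two-sided. Its null is no genotype difference at either age, so it does not test the interaction alone. Only 11 to 56 reads per library lay behind these cortex values.

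In culture *Bdnf* was higher in all 6 embryos. At 12 h it stood at 65.3, 129 and 83.3 in mutants 1, 2 and 6 and at 48.8, 114 and 85.8 in controls 3, 4 and 5, so every 12 h culture was above every E14.5 cortex. Each embryo's own rise from cortex to 12 h was between 2.59-fold and 9.67-fold, and the log2 fold change was 2.10 (SE 0.33; limma adjusted p 1.85e-04; exact permutation p over embryos 0.03125, the smallest 6 embryos allow). At 24 h the mutants had 118, 103 and 142 and the controls 157, 189 and 139. This was above 12 h in 5 of 6 embryos, with a log2 fold change of 0.73 (SE 0.23) that did not pass (limma adjusted p 0.257, exact permutation p over embryos 0.0625). The genotypes overlapped at both culture times, and the order of levels over the 6 libraries of each setting was 24 h (141 ± 30.1, SD), 12 h (87.8 ± 29.9), E11.5 cortex (25.2 ± 9.20) and E14.5 cortex (20.4 ± 9.51). The last 2 were not called different (adjusted p 0.385), and their order held in the mutants (32.3 and 14.01) but not in the controls (18.2 and 26.8).

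Markers of several other cell types also differed between cortex and culture. The summed level of 6 microglia markers went from 384 to 898 in E14.5 cortex to 6.31 to 40.9 at 12 h, that of 6 endothelial markers from 827 to 994 to 24.3 to 116, and that of 6 markers of meninges and pericytes from 1254 to 2207 to 86.5 to 234. *Aif1* and *Foxc1* were at 0 in all 12 h mutants and *Cldn5* in all 12 h controls. The summed level of 8 markers of postmitotic neurons overlapped, at 35391 to 47553 in cortex and 34465 to 50952 at 12 h, and so did those of 6 interneuron and ventral markers, at 2095 to 2778 and 2173 to 3177. The 4 markers of intermediate progenitors summed to 2186 to 2498 in cortex and 1229.9 to 1662 at 12 h, and the 6 of Cajal-Retzius cells to 843 to 1578 and 585 to 915. The 6 markers of choroid plexus and hem summed to 949 to 7752 in mutant cortices and 4567 to 15898 in mutant cultures at 12 h, and to 3251 to 5293 and 1026 to 3716 in the controls. The 7 liver markers summed to 5.48 to 12.4 and 163 to 695 in the mutants, and to 10.6 to 784 and 1.57 to 1089.7 in the controls. The part of these shifts in the change of *Bdnf* was not tested, and in such bulk samples a change in the number of cells of a type cannot be told apart from a change in RNA per cell.

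*Ntf3* (ENSMUSG00000049107; chromosome 6, 126101412 to 126166910, minus strand) was near the limit of detection. In cortex it had 5.81, 13.4 and 10.8 normalized counts in mutants A, B and C against 6.05, 5.02 and 0 in controls D, E and F, and 5.65, 9.94 and 3.13 in mutants 1, 2 and 6 against 2.35, 14.52 and 6.97 in controls 3, 4 and 5. At 12 h only controls 4 (14.1) and 5 (3.04) had any read, and at 24 h only mutant 2 (10.1) and control 5 (3.75). Its mean was below 10 in every comparison, so it was not tested across genes. Each library gave 0 to 20 reads, a 0 allows up to 3 reads, and a difference between genotypes was not detectable at this depth.

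*Ntrk2*, which encodes TrkB, rose with age and overlapped between genotypes in cortex. The gene (ENSMUSG00000055254; chromosome 13, 58806569 to 59133970, plus strand) has 7 coding transcripts with 6 different 3′ ends, and the count sums them, kinase-bearing and truncated receptors together. At E11.5 mutants A, B and C had 210.3, 245 and 190.4 normalized counts and controls D, E and F had 221, 212 and 277. At E14.5 mutants 1, 2 and 6 had 825, 806 and 656 and controls 3, 4 and 5 had 773, 768 and 656. Every E14.5 cortex was thus above every E11.5 cortex. The age difference was 3.31-fold (log2 1.73, SE 0.10; limma adjusted p 1.62e-09; exact permutation p within genotype 0.005, the smallest possible). Over the 12 cortices the genotype difference was -0.04 on the log2 scale, with a 95% confidence interval from -0.26 to 0.18, and its sign turned to 0.02 without control F and to 0.01 without mutant C.

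In culture *Ntrk2* stayed close to its level in E14.5 cortex. At 12 h mutants 1, 2 and 6 had 589, 699.7 and 638 and controls 3, 4 and 5 had 672, 719 and 581. These values were below the embryo's own cortex in 6 of 6 embryos (log2 -0.20, SE 0.10, limma adjusted p 0.138, exact permutation p over embryos 0.03125). At 24 h the mutants had 616, 604 and 604 and the controls 724, 731 and 713. These groups did not overlap and each lay within a narrow range, but the log2 difference of -0.25 (SE 0.12) did not pass (adjusted p 0.507).

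*Ntrk3*, which encodes TrkC, had the largest fold change with age among the 7 genes tested and was lower in all mutants than in all controls at E11.5, at E14.5 and at 24 h. It lies on chromosome 7, 78175959 to 78738012, minus strand (ENSMUSG00000059146), and has 6 coding transcripts with 6 different 3′ ends, which the count adds together. At E11.5 mutants A, B and C had 67.7, 81.4 and 69.2 normalized counts, and controls D, E and F had 99.8, 114 and 156. The mutants were all below the controls. At E14.5 mutants 1, 2 and 6 had 513, 436 and 549, and controls 3, 4 and 5 had 573, 624 and 606, again without overlap. The age difference was 5.78-fold (log2 2.53, SE 0.13; adjusted p 2.44e-10). In the 24 h cultures the mutants had 719, 589 and 535 and the controls 979, 866 and 940.1, which also did not overlap. At 12 h they did, with 721, 482 and 699 in mutants and 936, 616 and 778 in controls.

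The mutant over control log2 fold change of *Ntrk3* was -0.73 (SE 0.20) at E11.5, -0.27 (SE 0.13) at E14.5, -0.29 (SE 0.21) at 12 h and -0.60 (SE 0.14) at 24 h. The limma adjusted p was 0.566, 0.568, 0.913 and 0.0936, so no setting passed. Over the 12 cortices the difference was -0.50 (SE 0.13, adjusted p 0.208). Its exact permutation p within ages was 0.005, unadjusted, the smallest that this design allows. That value follows from the lack of overlap at both ages and adds nothing to it. *Ntrk3* belongs to a list of nervous system development genes that the study drew from its 24 h calls, so its 24 h values are not independent evidence of a direction. At 24 h *Ntrk3* passed with DESeq2 (adjusted p 0.0228) and with no filter on low values (0.0385). With a term for the share of reads from the ribosomal gene *Gm42418* its log2 difference was -0.55 with an adjusted p of 0.939. That fit called 0 genes of all (644 at an unadjusted p under 0.05). The share did not overlap between genotypes at 24 h (20.52% to 23.0% in mutants, 6.26% to 13.9% in controls), so the fit cannot separate it from genotype. From cortex to 12 h *Ntrk3* was higher in 5 of 6 embryos (log2 0.34, SE 0.13, limma adjusted p 0.0514, exact permutation p over embryos 0.0625). With the embryo as a block, since cortex and culture came from the same 6 embryos, the limma adjusted p was 0.0396. The order of its means over 6 libraries was 24 h (771 ± 186, SD), 12 h (705 ± 153), E14.5 (550.0 ± 68.5) and E11.5 (98.0 ± 33.6), with the first 2 overlapping widely.

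*Ngfr* (ENSMUSG00000000120; chromosome 11, 95568818 to 95587735, minus strand), which encodes p75NTR, stayed between 16.1 and 112 normalized counts in all 24 libraries. It had 59.3, 112 and 87.3 in the E11.5 mutants and 92.7, 92.0 and 84.7 in their controls, then 70.0, 82.8 and 75.2 in the E14.5 mutants and 89.4, 83.5 and 103 in theirs. The E14.5 mutants were below the controls by a gap of less than 1 count (log2 -0.27, SE 0.18; adjusted p 0.666). Between the ages the log2 difference was -0.05 (95% confidence interval -0.36 to 0.25). The 12 h cultures spread from 16.1 in mutant 6 to 95.7 in control 5, and the 24 h cultures from 33.7 in control 4 to 85.6 in mutant 6. Neither culture step passed, and the 4 settings overlapped in *Ngfr*.

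*Frs2* (ENSMUSG00000020170; chromosome 10, 117069427 to 117148534, minus strand) encodes a membrane-anchored docking protein shared by FGF and Trk receptors. It had 144, 141 and 136 normalized counts in the E11.5 mutants against 160.2, 151 and 165 in the controls, which did not overlap (log2 -0.18, SE 0.13; adjusted p 0.757). At E14.5 the mutants had 218, 212 and 179 and the controls 159, 180.0 and 229. The rise with age was small (log2 0.38, SE 0.11; adjusted p 0.00831), the E14.5 controls reached down into the E11.5 range, and in a fit of all 24 libraries it did not pass (adjusted p 0.0774). In culture the values ran from 136 to 346 at 12 h and from 152 to 247 at 24 h, and the genotypes overlapped.

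*Dok4* (ENSMUSG00000040631; chromosome 8, 94863828 to 94876330, minus strand), a docking protein of receptor tyrosine kinases, was high in E14.5 cortex alone among the 4 settings. It had 82.6, 59.1 and 55.5 normalized counts in the E11.5 mutants and 109, 83.6 and 87.1 in their controls. At E14.5 it had 166, 194 and 175 in mutants and 179, 197 and 153 in controls. Every E14.5 value was above every value of the other settings. The age difference was 2.27-fold (log2 1.18, SE 0.14; adjusted p 3.56e-06), and at 12 h the level fell in 6 of 6 embryos (log2 -1.22, SE 0.21; adjusted p 3.92e-04; exact permutation p 0.03125). The 12 h cultures had 72.1, 96.8 and 109 in mutants and 66.1, 38.7 and 92.6 in controls, and the 24 h cultures 72.4, 86.0 and 102 against 95.6, 79.2 and 104. At E11.5 the mutants were below the controls without overlap (log2 -0.51, SE 0.21, adjusted p 0.643). The nearest values were 82.6 in mutant A and 83.6 in control E.

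*Dok5* (ENSMUSG00000027560; chromosome 2, 170731807 to 170879769, plus strand), a docking protein known as a substrate of TrkB and TrkC, overlapped between genotypes at E11.5 and at 12 h and was lower in all mutants than in all controls at E14.5 and at 24 h. At E11.5 mutants A, B and C had 42.6, 56.9 and 42.5 normalized counts and controls D, E and F had 51.4, 46.0 and 50.5. At E14.5 mutants 1, 2 and 6 had 206, 177 and 162, and controls 3, 4 and 5 had 274, 303 and 299.9. The groups did not overlap there (181 ± 22.1 against 292 ± 15.8, SD, n = 3 each). At 12 h they overlapped, with 100.4, 76.8 and 186 against 197, 196 and 110.1. At 24 h the mutants had 115, 71.9 and 71.6 and the controls 150.2, 204 and 176, which did not overlap.

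The log2 fold change of *Dok5* between mutants and controls was -0.07 (SE 0.21) at E11.5, -0.69 (SE 0.15) at E14.5, -0.52 (SE 0.36) at 12 h and -1.05 (SE 0.24) at 24 h. The limma adjusted p was 0.939, 0.232, 0.913 and 0.0876, so no setting passed. The genotype by age interaction (-0.62, SE 0.23) did not pass either (adjusted p 0.620). An exact permutation of genotype labels within each age, whose null is no genotype difference at either age, gave p 0.07 for this contrast. DESeq2 on whole reads gave adjusted p of 0.0360 at E14.5 and 0.0224 at 24 h, and no filter on low values gave 0.0249 at 24 h. With a term for the *Gm42418* share at 24 h the log2 difference was -1.38 with an adjusted p of 0.939. This was the same fit that called 0 genes and that cannot separate the share from genotype. Without mutant 1 the adjusted p at 24 h was 0.0482. *Dok5* too belongs to the list that the study drew from the 24 h cultures, and also to lists it drew from the E14.5 cortices, so neither setting is independent evidence of its direction. Over both genotypes *Dok5* was 4.70-fold higher at E14.5 than at E11.5 (log2 2.23, SE 0.14, limma adjusted p 2.26e-09). At 12 h *Dok5* fell (log2 -0.76, SE 0.20, limma adjusted p 0.0103, exact permutation p over embryos 0.0625). Its values were lower in 5 of 6 embryos, mutant 6 being the exception.

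**Figure D2:**
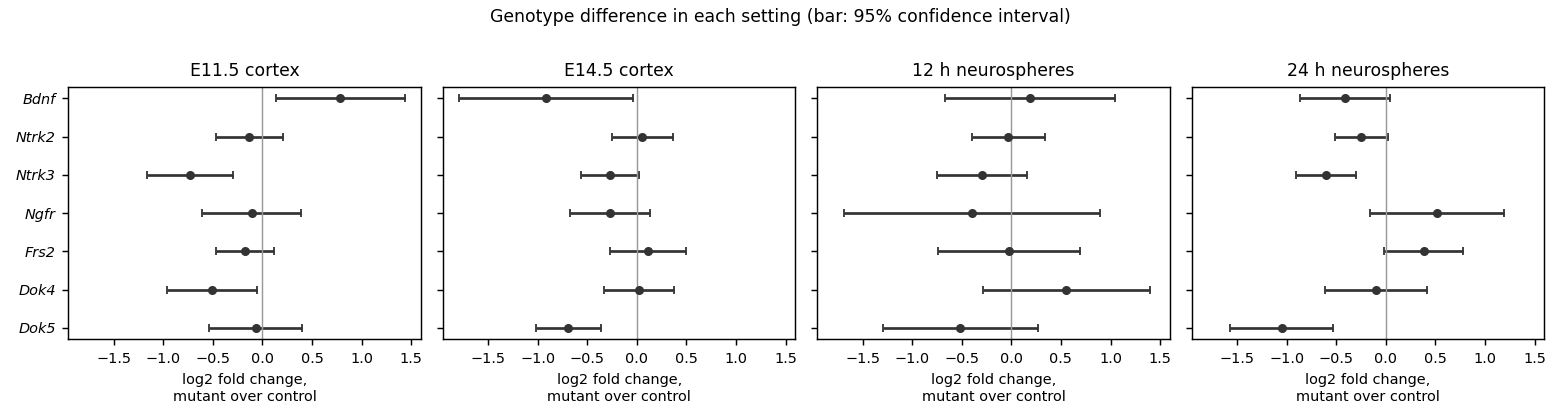
Log2 fold change of mutants over controls (x) for the 7 genes tested (y), in each of the 4 settings. Points are limma estimates from 3 against 3 libraries and bars are 95% confidence intervals. The interval of *Ntrk3* lies below 0 at E11.5 and 24 h, that of *Dok4* at E11.5, and that of *Dok5* at E14.5 and 24 h. That of *Bdnf* is above 0 at E11.5 and below 0 at E14.5. None of these passed after adjustment across all genes.

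None of the 7 genes was called between genotypes, where 0.0149% of all genes were called at E11.5, 0.0736% at E14.5, 0.0% at 12 h, 0.271% at 24 h and 0.139% over the 12 cortices. At 12 h and in the interactions, where limma called no gene at all, 650 genes had an unadjusted p under 0.05 at 12 h, 1070 in the interaction with age, 724 in that with 12 h culture and 318 in that with the step to 24 h (0.0% called in each). Mutants and controls did not overlap for 4 of 7 genes at E11.5 (*Bdnf* higher, *Ntrk3*, *Dok4* and *Frs2* lower; 13.3% of all genes), 3 at E14.5 (*Ntrk3*, *Ngfr* and *Dok5* lower; 13.7%), 0 at 12 h (11.0%) and 3 at 24 h (*Ntrk2*, *Ntrk3* and *Dok5* lower; 16.2%). *Ntrk3* alone was apart in the same direction at E11.5 and E14.5, as were 1.37% of all genes, and *Ntrk3* and *Dok5* were so at E14.5 and 24 h, as were 2.26%, in samples from the same embryos. *Ntrk3* was apart in all 3, as were 0.455%. The median log2 fold change of the 7 genes was -0.13 at E11.5, -0.27 at E14.5, -0.03 at 12 h and -0.25 at 24 h, beside 0.02, 0.01, -0.02 and -0.01 over all genes. With 3 against 3 libraries an exact permutation test cannot go below 0.1.

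Several marker lists were apart between the genotypes in each setting, also at 12 h, where none of the 7 genes was. Most lists that overlapped are left out here. By the same rule 13.3% of all genes were apart at E11.5, 13.7% at E14.5, 11.0% at 12 h and 16.2% at 24 h. At 12 h the markers of intermediate progenitors summed to 1447 to 1662 in mutants and 1229.9 to 1316 in controls. Those of Cajal-Retzius cells summed to 710 to 915 against 585 to 689, and the endothelial ones to 82.9 to 116 against 24.3 to 50.3. Choroid plexus and hem stood at 4567 to 15898 against 1026 to 3716, and microglia at 6.31 to 15.6 against 18.8 to 40.9. The summed level of the 8 markers of postmitotic neurons was 35391 to 37448 in E14.5 mutants and 43886 to 47553 in E14.5 controls. At 24 h it was 35019 to 41592 against 44416 to 49509, again without overlap, while at E11.5 it was 10021 to 11233 against 9748 to 14566. Within that list at E11.5, *Dcx* (943 to 983 against 1072 to 1304), *Stmn2* (877 to 1138 against 1284 to 1650) and *Neurod2* (78.6 to 125 against 179 to 222) were lower in every mutant. *Tubb3*, *Map2*, *Neurod6*, *Gap43* and *Bcl11b* overlapped there. The 6 microglia markers summed to 735 to 898 in E14.5 mutants and 384 to 448 in their controls, with none at 0. The 6 markers of Cajal-Retzius cells summed to 1281 to 1578 against 843 to 1041, and the 4 cortex markers to 1912 to 2689 against 2743 to 2928. At 24 h the 8 markers of apical progenitors summed to 12079 to 13278 in mutants and 9389 to 10593 in controls. *Vim* held the largest part of that sum, at 7954 to 8636 against 5732 to 6628. *Pax6*, *Hes1*, *Hes5* and *Nes* were also higher in every mutant, and *Sox2*, *Fabp7* and *Slc1a3* overlapped. The 4 markers of intermediate progenitors summed to 1270.5 to 1367 against 989 to 1095. At 24 h too, the 6 markers of choroid plexus and hem summed to 4940 to 16587 in mutants and 799 to 3579 in controls, with *Wnt3a* at 0 in all libraries of both genotypes and *Kl* at 0 in all mutants, 7 liver markers to 91.7 to 305 against 1.69 to 6.83, with 5 at 0 in all controls, and *Gm42418* took 20.52% to 23.0% of reads against 6.26% to 13.9%. The 6 markers of meninges and pericytes summed to 202 to 206 against 95.6 to 133 at 24 h. At E11.5 the 6 markers of interneurons and ventral cells summed to 885 to 1092 in mutants and 1306 to 1534 in controls. The 6 endothelial markers summed to 1131 to 1273 against 980 to 1084 there. Those of choroid plexus and hem summed to 1921 to 2236 against 1511 to 1887, with *Kl* at 0 in all controls. The 7 liver markers summed to 10.039 to 666 against 3.89 to 10.035, with 4 at 0 in all controls, so the nearest libraries were almost equal. The part of these in the values of the 7 genes was not tested.

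**Figure D3:**
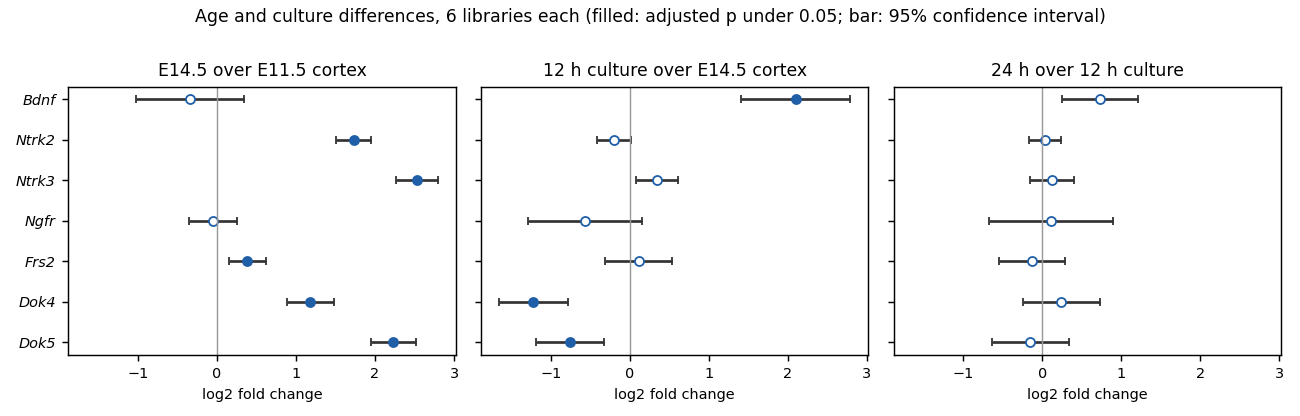
Log2 fold change (x) of the 7 genes (y) between E11.5 and E14.5 cortex, between E14.5 cortex and 12 h culture, and between 12 and 24 h of culture, 6 libraries on each side. Bars are 95% confidence intervals and filled points passed an adjusted p of 0.05. With age 5 genes rose, at 12 h *Bdnf* rose and *Dok4* and *Dok5* fell, and no gene passed in the last step.

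With age 5 of the 7 genes rose and 0 fell, where 53.1% of all genes were called, 23.8% higher and 29.3% lower. Their median log2 change was 1.18 beside -0.08 over all genes. The summed neuron markers rose over the same step, from 9748 to 14566 at E11.5 to 35391 to 47553 at E14.5, and the summed markers of meninges and pericytes went from 1913 to 7809 to 1254 to 2207. Their part was not tested. At 12 h of culture 1 gene rose and 2 fell, where 30.2% of all genes were called, 14.1% higher and 16.1% lower. From 12 to 24 h 0.292% of all genes were called and none of the 7.

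**Figure D4:**
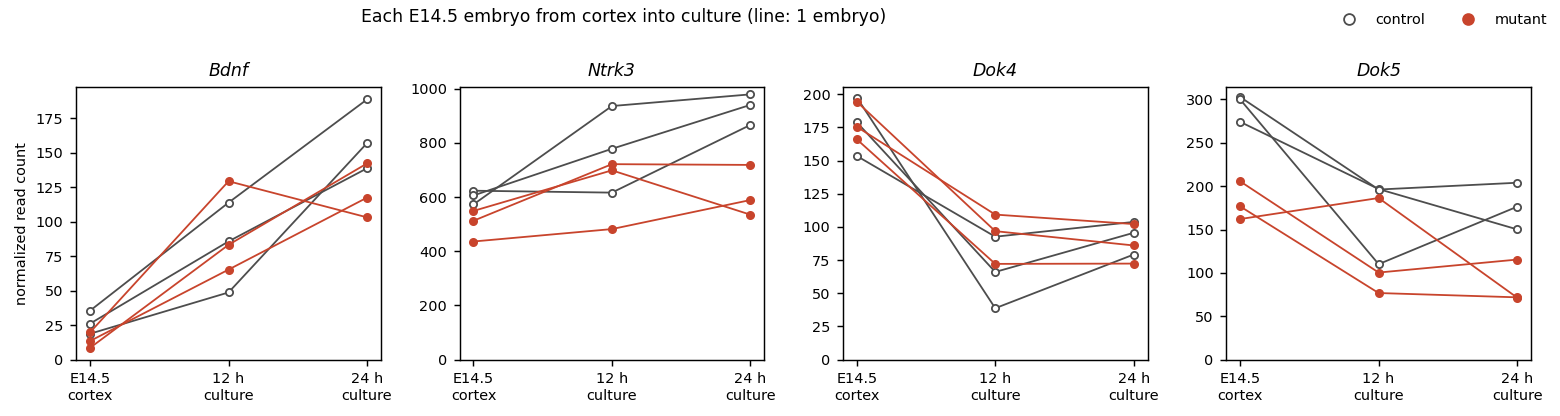
Normalized read counts (y, linear) of *Bdnf*, *Ntrk3*, *Dok4* and *Dok5* in the cortex of each E14.5 embryo and in its cultures at 12 and 24 h (x). Each line is 1 embryo, grey with open points for controls and red with filled points for mutants. *Bdnf* climbs in all 6 embryos from cortex to 12 h, and *Dok4* drops in all 6.

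The rest of the pathway was described by 36 other genes, which hold the remaining ligands and Trk receptors, the sortilin family, p75NTR partners and further adaptors, and of which 28 to 30 had enough reads in each comparison. None was called between genotypes, from 12 to 24 h or in an interaction, and 8 of 30 had an unadjusted p under 0.05 at 24 h, where 10.6% of all genes had one. With age 10 of 28 rose and 4 fell, a share near the 53.1% of all genes called, with a median log2 change of 0.19 beside -0.08 over all genes. Those with the smallest p were *Lingo1*, a co-receptor of p75NTR (log2 2.94, adjusted p 7.20e-10), *Kidins220*, a scaffold of Trk and p75NTR receptors (1.66, 3.13e-08), and *Sorcs3*, of the sortilin family (1.61, 2.68e-07), among the risers. Of those that fell they were the adaptor *Shc1* (-1.34, 6.16e-06), the adaptor *Dok1* (-1.39, 1.02e-04) and *Nradd*, a relative of p75NTR (-0.63, 0.0106).

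At 12 h of culture 5 of the 28 rose and 3 fell, a share near the 30.2% of all genes called, with a median log2 change of -0.01 beside -0.06 over all genes. *Shc3*, a neuronal adaptor of the Shc family, rose the most by p and by size, from 12.9 to 46.3 normalized counts in E14.5 cortex to 52.0 to 182 at 12 h (log2 2.29, SE 0.32; adjusted p 6.87e-05). At 24 h *Shc3* stood at 138 to 159.9 in mutants and at 99.4 to 121 in controls, without overlap, as did 16.2% of all genes there. Other genes of the list were apart at 24 h too, among them *Lingo1* (71.9 to 111 against 158 to 208), and none was called. After *Shc3*, the risers at 12 h with the smallest p were the adaptor *Sh2b2* (0.70, adjusted p 2.56e-04) and *Sorcs1* (0.89, 8.04e-04). At 12 h *Lingo1* (-0.65, adjusted p 0.00287), *Maged1*, which binds p75NTR (-0.45, 0.00762), and the docking gene *Gab1* (-0.89, 0.0158) fell.

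Over the 24 libraries the members did not move as 1 group. On log2(normalized count + 1) values, *Ntrk2* and *Ntrk3* correlated at Pearson's r of 0.94, *Ntrk2* and *Dok5* at 0.85 and *Ntrk3* and *Dok5* at 0.78, while *Bdnf* was at 0.35 with *Ntrk2* and -0.46 with *Dok4*. *Ngfr* was between -0.43 and 0.17 with every other gene tested. Among 13678 genes the closest in pattern to *Ntrk3* were *Myt1l* (r = 0.990), *Celf2* and *Rtn1*, and to *Ntrk2* *Mapt* (0.988), *Dpysl3* and *Nexmif*. The closest to *Dok5* were *Pcp4* (0.927), *Mras* and *Rab3d*, to *Dok4* *2810013P06Rik* (0.872), *St8sia4* and *Prkcb*, and to *Bdnf* *Slc38a2* (0.946), *Sept8* and *Spry2*. For *Ngfr* and *Frs2* the best matches were looser, *Palb2* (0.859), *Vps51* and *Mettl18* for the former and *Fam208a* (0.814), *2410002F23Rik* and *Ncdn* for the latter. These values describe libraries that share embryos, age and culture steps.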

How the data were processed

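RNA was measured in 24 libraries, 12 cortices and 12 neurosphere cultures of 12 embryos. The authors prepared QuantSeq 3′ FWD libraries by oligo(dT) priming, aligned reads to GRCm38 with TopHat2 2.0.10 (SAMtools 0.1.19, Bowtie 1.0.0) and counted them by strand with HTSeq 0.6.1 (versions from the submitters' processing notes and the study's methods). The values deposited by the authors are a signal, the counts of each gene divided by a size factor of the library, so depth is only known through the recovered reads. In 23 libraries all 464180 values above 0 came out as whole reads within 0.01 read. In control D the value of 1 read is too close to 1 to tell whole reads from rounding, so count models were not used where D enters.

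Here limma 3.58.1 (R 4.3.3) was fitted to log2(normalized count + 1), so fold changes of low genes are understated. A gene was tested where its mean over the compared libraries reached 10 (7 of the 8), with Benjamini-Hochberg adjustment over all of them and a threshold of 0.05. edgeR 4.0.16 and DESeq2 1.42.0 on recovered reads, other pseudocounts (0.1 and 5), filters (none and 50), scalings (TMM and quantile), terms for sex, litter and *Gm42418* share, and leaving out each library were alternatives. Exact permutation tests were two-sided and, for culture, over embryos. E14.5 cortex and cultures shared embryos (from the labels), and their deviations from the group means correlated at -0.11 to 0.24 in the 18 pairs (median 0.14, above 0.1 in 12). The highest correlation between 2 libraries was 0.979 on the log2 scale, and no columns were identical. Tests were checked on simulated data.

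Gene positions are from GENCODE vM21 (GRCm38). Genes named are the 8 members, up to 3 of the 36 pathway genes called in each direction by smallest p, the 3 genes of highest Pearson's r with each member, and *Cep135*. The members and lists were chosen with earlier results of these data known.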

Additional observations from a re-analysis of the deposited data

How the results depend on the processing

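Direction was kept in every alternative run for each of the 7 genes in each comparison where it had an unadjusted p under 0.05 or groups that did not overlap. The number of the 7 genes called between genotypes at 24 h moved from 0 to 2 with DESeq2 on whole reads and to 2 with no filter on low values (*Ntrk3* and *Dok5* in both), and lay between 0 and 1 when 1 library was left out. At E14.5 it moved from 0 to 1 with DESeq2 (*Dok5*). The log2 genotype difference of *Ntrk2* over the 12 cortices, -0.04, lay between -0.083 and 0.025 when 1 library was left out, so its sign was not fixed. The calls for *Ntrk2*, *Ntrk3*, *Dok4* and *Dok5* with age and for *Bdnf*, *Dok4* and *Dok5* at 12 h held in every alternative run, and that for *Frs2* with age in all but the fit of all 24 libraries. *Ntrk3* at 12 h passed in 8 of 11 alternatives and in 3 of 12 leave-one-out fits (adjusted p 0.0155 to 0.140 over all). With the embryo as a replicate block 4 genes in place of 3 were called at 12 h, the added one being *Ntrk3*, and the block changed no other call of these genes. It called 104 genes of all from 12 to 24 h in place of 39. The number of all genes called between genotypes was unstable. Over the alternatives it ranged from 0 to 17 at E11.5 (2), 1 to 74 at E14.5 (10), 0 to 182 at 12 h (0), 0 to 182 at 24 h (36) and 6 to 35 over the 12 cortices (19), and from 12 to 24 h from 19 to 160 (39), main values in parentheses; the cause was not tested. With a term for sex, limma called 1 gene of all between genotypes at E14.5, 182 at 12 h and 4 at 24 h. edgeR and DESeq2 were not run on comparisons that hold control D. *Ntf3* and the cortex levels of *Bdnf* are limited by depth.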
